A study of Homo sapiens with 6 samples.

Results

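The 9 genes described here are the transcription factor NRF2 (gene NFE2L2), its inhibitor KEAP1 and 7 antioxidant genes that NRF2 is known to drive, namely SLC7A11, GCLC, GCLM, TXNRD1, SRXN1, NQO1 and ME1. They were chosen by gene name and not by a rule on their values, though with earlier results of these data known. All 9 were found among the 27605 genes of the authors' expression table. The RNA came from cells labelled HepG2, an established human hepatoma line, grown in DMEM with serum. The control group carried a control hairpin (shNC, genotype given as WT, n = 3 libraries), and the knockdown group carried a lentiviral hairpin against ARHGEF2 (shARHGEF2, genotype given as ARHGEF2 knockdown, n = 3 libraries). ARHGEF2 encodes a guanine nucleotide exchange factor that activates the small GTPase RhoA, and the series asked how its loss alters gene expression. No drug, stressor or time course was part of either group. The labels do not state whether the 3 libraries of a group came from separate cultures, or whether the shARHGEF2 libraries share a hairpin, so the p-values below measure only the spread between libraries, which may be technical.

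NRF2 is held at a low level in unstressed cells because KEAP1 binds it and presents it to a CUL3 ubiquitin ligase. Oxidants and electrophiles modify cysteines of KEAP1, NRF2 then accumulates, pairs with a small MAF protein and binds antioxidant response elements next to its target genes. The pathway is therefore set largely through protein stability, and the mRNA of its targets is the usual readout. In liver it is known for the defence against drugs and reactive metabolites, and it is often active in liver cancer.

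The antioxidant response element has the core TGACNNNGC, which was searched on both strands in the RefSeq promoter windows of GRCh38.p14 (250 bases before to 50 bases after an annotated start). Windows were given for 8 of the 9 genes, all but SLC7A11, and 5 of their 11 windows held the core, against 13.3% of all 35116 windows. The sequences below lie wholly before the start and are shown so that the letters of this element can be compared between the genes that hold it, KEAP1 among them. They are written 5′ to 3′ along the strand of the gene, with the core or its reverse complement in capitals.
GCLM, chr1:93909446-93909474, minus strand: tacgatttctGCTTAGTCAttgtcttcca
KEAP1, chr19:10502784-10502812, minus strand: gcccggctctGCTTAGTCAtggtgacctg
KEAP1, further upstream, chr19:10502807-10502835, minus strand: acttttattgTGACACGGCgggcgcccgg
TXNRD1, first start, chr12:104215670-104215698, plus strand: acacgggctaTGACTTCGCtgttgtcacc
TXNRD1, second start, chr12:104286920-104286948, plus strand: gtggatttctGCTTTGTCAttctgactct
ME1, chr6:83431170-83431198, minus strand: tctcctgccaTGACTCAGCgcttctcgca
GCLM and KEAP1 carried the same 9 letters, GCTTAGTCA. They lay 26 to 34 bases before the GCLM start and 23 to 31 bases before the downstream start of KEAP1. Both KEAP1 matches were in the window of that start, and the window of its upstream start held none. No match was found in the windows of NFE2L2, NQO1, GCLC and SRXN1, which says only that these letters are absent from those windows. A match is a description of the sequence and not a measured binding site.

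Expression is given as FPKM, fragments scaled to transcript length and to the mapped total of the library, as deposited. Fold changes are differences of log2(FPKM + 1) from limma, tested over the 12291 genes whose average reached 0.5 FPKM and called at a Benjamini-Hochberg adjusted p under 0.05. The hairpin target ARHGEF2 had 13.0, 14.4 and 13.9 FPKM in the shNC libraries and 4.25, 4.004 and 4.82 FPKM in the shARHGEF2 libraries. It fell by 1.47 on the log2 scale (95% interval -1.71 to -1.22, adjusted p = 0.00244 in limma), to 31.6% of its shNC mean. Of all genes tested, 34 (0.277%) were called. The label of the cells was checked against 16 hepatocyte genes. VTN, at 5.51 to 6.60 FPKM, was the only one to average 1 FPKM or more, and RBP4 reached 0.907 FPKM. ALB, APOB, TF, TTR, FGB, AHSG, APOH and TAT had no row among the values used here, and the other 6 genes, AFP, APOA1 and HNF4A among them, stayed at or below 0.248 FPKM. KRT8, KRT18, KRT19, KRT17 and VIM, found in epithelial or mesenchymal cells, each reached at least 60.4 FPKM in every library, whereas EPCAM and CDH1 did not exceed 0.0547 FPKM. The libraries carried hardly any of the RNA that defines hepatocytes, and HepG2 is used here as the label. The summed FPKM of the hepatocyte genes, mostly VTN, was 5.92 to 6.22 in shNC and 6.67 to 7.57 in shARHGEF2. That of 4 endothelial genes, mostly PECAM1, was 0.591 to 0.670 and 0.801 to 0.904. Both sums separated the groups as SRXN1 did, each resting mainly on 1 gene. The sums of simple epithelial, squamous or basal, mesenchymal and immune marker genes overlapped between the groups. The part of any of these sums in the results was not tested. In bulk RNA, fewer cells of a type and less RNA per cell cannot be told apart.

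None of the 9 genes was called after knockdown of ARHGEF2. The adjusted p in limma ran from 0.249 for SRXN1 to 0.942 for NFE2L2. At an unadjusted p under 0.05 there was 1 gene, SRXN1, where 13.7% of all genes tested passed in either direction. SRXN1 was also the only one of the 9 in which the groups did not overlap, where 20.5% of all genes tested did not overlap (11.3% with the shARHGEF2 libraries higher and 9.17% with them lower). The log2 fold change was positive for 8 of the 9 genes and negative for SLC7A11, with a median of 0.08 beside a median of -0.0016 over all genes tested. The sizes were small: the largest log2 fold change among the 9 genes was 0.33, and the smallest among the 34 genes called was 0.60.

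**Figure D1:**
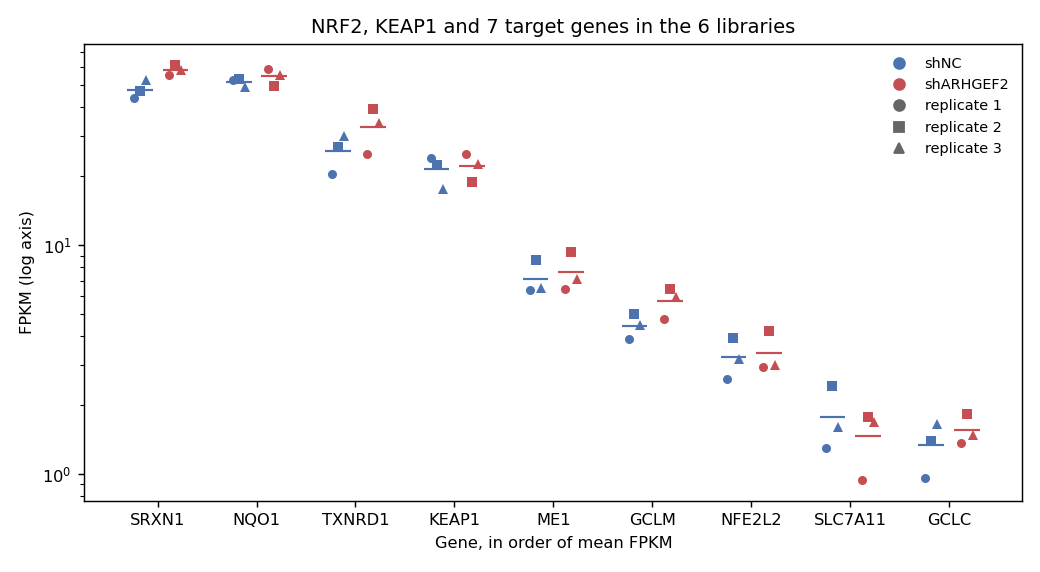
FPKM on a log axis for each of the 9 genes in the 6 libraries, with shNC in blue, shARHGEF2 in red, 1 symbol per replicate number and a short line at each group mean (n = 3 libraries). SRXN1 is the only gene whose red points, 55.2 to 61.5 FPKM, all lie above its blue points, 44.2 to 52.5 FPKM.

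The levels of the 9 genes spanned more than an order of magnitude within each library. SRXN1 (mean 53.1 FPKM over 6 libraries) and NQO1 (53.1 FPKM) were the most abundant, and they could not be ranked, since SRXN1 was the higher of the pair in 3 of 6 libraries. TXNRD1 (29.4 FPKM) and KEAP1 (21.8 FPKM) came next and overlapped, with TXNRD1 the higher in 4 of 6 libraries. ME1 (7.38 FPKM) exceeded GCLM (5.09 FPKM), and GCLM exceeded NFE2L2 (3.31 FPKM), in 6 of 6 libraries. The lowest were SLC7A11 (1.62 FPKM) and GCLC (1.44 FPKM), which changed places in 3 of 6 libraries. The ranges over all 6 libraries did not overlap between NQO1 and TXNRD1, between KEAP1 and ME1, or between NFE2L2 and SLC7A11.

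The mRNA of NRF2 itself did not separate the groups. NFE2L2 (ENSG00000116044, chromosome 2 of GRCh38, 177227595 to 177392697) had 2.61, 3.95 and 3.17 FPKM in shNC and 2.94, 4.21 and 3.00 FPKM in shARHGEF2 replicates 1 to 3. Replicate 2 was the highest library of both groups, and the spread within a group was larger than the distance between the groups. The means were 3.24 ± 0.670 and 3.38 ± 0.715 FPKM (SD, n = 3 each), with a log2 fold change of 0.05 (95% interval -0.33 to 0.42, adjusted p = 0.942 in limma). This interval covers folds of 0.797 to 1.34 in FPKM + 1, so a moderate change in either direction was not excluded with 3 libraries per group. At this level, folds of FPKM + 1 lie nearer to 1 than folds of FPKM. The direction turned to -0.064 without shNC replicate 1 and to -0.084 without shARHGEF2 replicate 2. In the annotation NFE2L2 shares 190 exon bases with the antisense gene AC079305.1, which reached 0.616 FPKM, and 540 with the sense gene AC019080.1, which reached 0.187 FPKM.

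KEAP1, the cysteine-rich adaptor that keeps NRF2 unstable, likewise overlapped between the groups. KEAP1 (ENSG00000079999, chromosome 19, 10486120 to 10503741) had 24.1, 22.5 and 17.7 FPKM in shNC and 25.1, 18.9 and 22.7 FPKM in shARHGEF2 replicates 1 to 3. The lowest value was shNC replicate 3 and the highest shARHGEF2 replicate 1. The means were 21.4 ± 3.36 and 22.3 ± 3.10 FPKM (SD, n = 3 each), with a log2 fold change of 0.05 (95% interval -0.27 to 0.38, adjusted p = 0.917 in limma). It was -0.072 without shNC replicate 3 and -0.033 without shARHGEF2 replicate 1. The ratio of KEAP1 to NFE2L2 FPKM was 9.24, 5.70 and 5.58 in shNC and 8.54, 4.50 and 7.58 in shARHGEF2. These ratios overlapped widely (exact permutation test, two-sided, on the log2 ratio, p = 1, n = 3 each).

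Cystine import and glutathione synthesis are the next step of the pathway. SLC7A11 is the cystine transporter that supplies cysteine, GCLC is the catalytic subunit of glutamate-cysteine ligase, which makes the first bond of glutathione, and GCLM is the modifier subunit that makes this ligase more efficient. SLC7A11 (ENSG00000151012, chromosome 4, 138164097 to 138242349) had 1.29, 2.42 and 1.61 FPKM in shNC and 0.941, 1.77 and 1.69 FPKM in shARHGEF2 replicates 1 to 3. It was the only one of the 9 genes with a lower mean in shARHGEF2 cells. The extremes were shNC replicate 2 and shARHGEF2 replicate 1, and the other 4 libraries lay between them. The log2 fold change was -0.17 (95% interval -0.60 to 0.27, adjusted p = 0.772 in limma).

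GCLC (ENSG00000001084, chromosome 6, 53497341 to 53616970) had 0.962, 1.39 and 1.65 FPKM in shNC and 1.36, 1.83 and 1.48 FPKM in shARHGEF2 replicates 1 to 3. The groups overlapped, with shNC replicate 1 the lowest of all libraries and shARHGEF2 replicate 2 the highest. Its log2 fold change was 0.14 (95% interval -0.19 to 0.47, adjusted p = 0.739 in limma). A gene this low has its fold change shrunk by the added 1 FPKM. GCLM (ENSG00000023909, chromosome 1, 93885205 to 93909456) had 3.90, 4.98 and 4.47 FPKM in shNC and 4.78, 6.45 and 5.94 FPKM in shARHGEF2 replicates 1 to 3. The 2 groups were separated except for shARHGEF2 replicate 1, which lay just under shNC replicate 2. The means were 4.45 ± 0.539 and 5.73 ± 0.859 FPKM (SD, n = 3 each), a ratio of 1.29, and the log2 fold change was 0.30 (95% interval -0.01 to 0.61, unadjusted p = 0.0581 and adjusted p = 0.388 in limma). The ratio of GCLM to GCLC FPKM was 4.06, 3.58 and 2.71 in shNC and 3.51, 3.52 and 4.03 in shARHGEF2. It did not differ beyond the spread between libraries (exact permutation test, two-sided, on the log2 ratio, p = 0.9, n = 3 each).

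The thioredoxin branch was represented by TXNRD1 and SRXN1, of which SRXN1 separated the groups and TXNRD1 did not. TXNRD1 is the cytosolic selenoenzyme that keeps thioredoxin reduced, and SRXN1, sulfiredoxin, repairs peroxiredoxins whose catalytic cysteine has been overoxidised. SRXN1 (ENSG00000271303, chromosome 20, 646615 to 653370) had 44.2, 47.0 and 52.5 FPKM in shNC and 55.2, 61.5 and 58.5 FPKM in shARHGEF2 replicates 1 to 3. All 3 shARHGEF2 libraries exceeded all 3 shNC libraries. A two-sided exact permutation test gave p = 0.1, which is the lowest value this design can reach. The means were 47.9 ± 4.22 and 58.4 ± 3.12 FPKM (SD, n = 3 each), a ratio of 1.22, and the log2 fold change was 0.28 (95% interval 0.07 to 0.50, unadjusted p = 0.0167 in limma). SRXN1 ranked 822 by p among the 12291 genes tested, and its adjusted p of 0.249 in limma did not pass. Across the alternatives its log2 fold change stayed between 0.23 and 0.35, and its adjusted p between 0.140 and 0.546.

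TXNRD1 (ENSG00000198431, chromosome 12, 104215779 to 104350305) had 20.5, 27.0 and 30.1 FPKM in shNC and 25.0, 39.5 and 34.3 FPKM in shARHGEF2 replicates 1 to 3. The 2 highest libraries were shARHGEF2 libraries and the lowest was an shNC library, but shARHGEF2 replicate 1 lay below 2 of the shNC libraries. The means were 25.8 ± 4.89 and 32.9 ± 7.35 FPKM (SD, n = 3 each), and the log2 fold change of 0.33, the largest of the 9 genes, had a standard error of 0.19 (95% interval -0.11 to 0.77, adjusted p = 0.493 in limma). Without shARHGEF2 replicate 1 it was 0.51. Without shARHGEF2 replicate 2 it was 0.19, and without shNC replicate 1 it was 0.18. With 0.1 FPKM added in place of 1 it was 0.34, below the 0.35 of GCLM. The ribosomal protein pseudogene RPL18AP3 lies inside TXNRD1 on the same strand, shares no exon bases with its listed transcripts, and was given 405 to 530 FPKM. Its log2 fold change was -0.10 (95% interval -0.35 to 0.14, adjusted p = 0.737 in limma). Any part of its reads in the values of TXNRD1 was not tested.

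**Figure D2:**
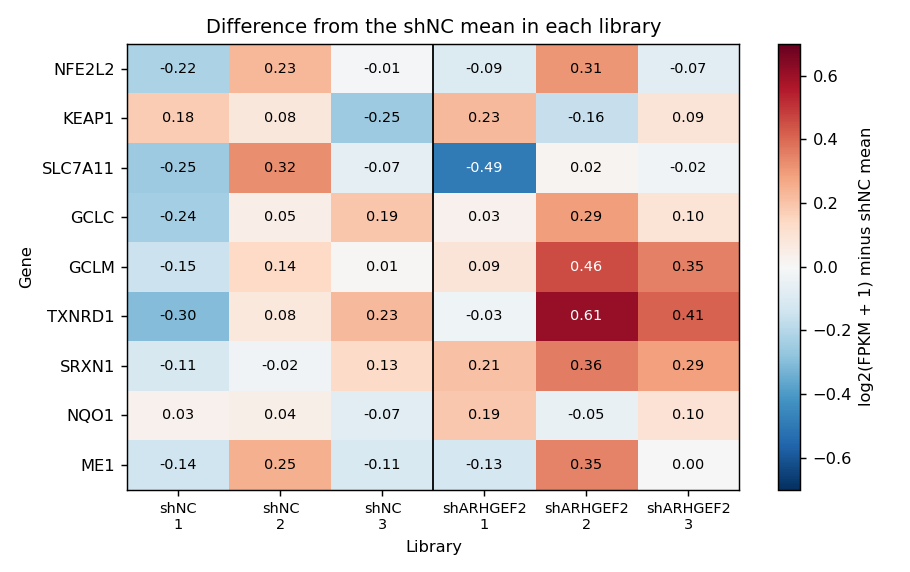
Difference of log2(FPKM + 1) from the shNC mean for each of the 9 genes (rows) in each library (columns), with red above and blue below the shNC mean and the value printed in each cell. SRXN1 is above its shNC mean in all 3 shARHGEF2 libraries by 0.21 to 0.36, and TXNRD1 ranges from -0.03 to 0.61 in the same libraries.

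The last 2 targets handle quinones and NADPH. NQO1 reduces quinones by a single 2-electron step and is the classic marker of NRF2 activity, and ME1, cytosolic malic enzyme, supplies the NADPH that these reductases use. NQO1 (ENSG00000181019, chromosome 16, 69706996 to 69726951) had 52.7, 53.0 and 49.0 FPKM in shNC and 58.8, 49.7 and 55.3 FPKM in shARHGEF2 replicates 1 to 3. Replicates 1 and 3 of shARHGEF2 exceeded all shNC libraries and replicate 2 lay among them. The means of 51.6 ± 2.23 and 54.6 ± 4.62 FPKM (SD, n = 3 each) gave the most precise estimate of the 9 genes, with a standard error of 0.09 around a log2 fold change of 0.08. Its 95% interval of -0.14 to 0.29 covers folds of 0.911 to 1.22 in FPKM + 1 (adjusted p = 0.786 in limma).

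ME1 (ENSG00000065833, chromosome 6, 83210389 to 83431071) had 6.34, 8.60 and 6.50 FPKM in shNC and 6.41, 9.29 and 7.10 FPKM in shARHGEF2 replicates 1 to 3. As with NFE2L2, replicate 2 was the highest library in both groups. The log2 fold change of ME1 was 0.08 (95% interval -0.29 to 0.44, adjusted p = 0.888 in limma), and it turned to -0.061 without shARHGEF2 replicate 2.

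**Figure D3:**
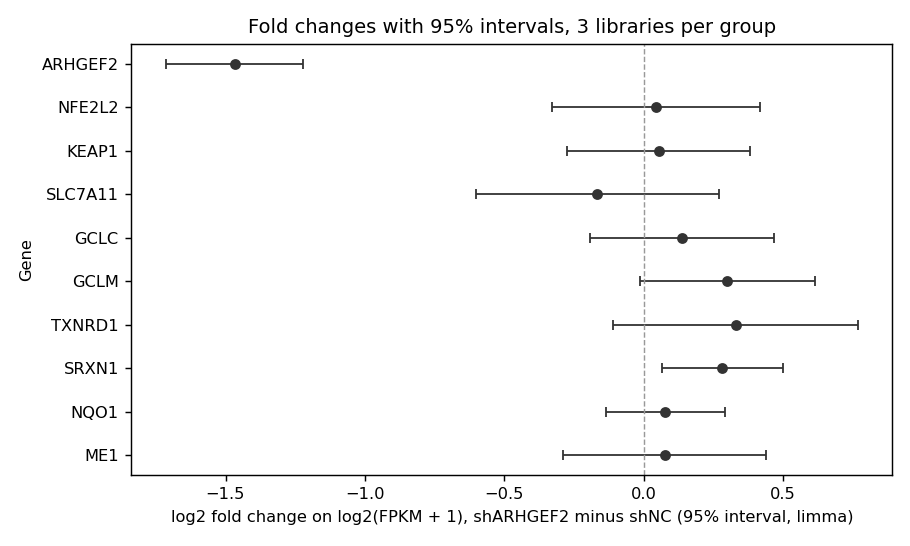
Log2 fold change on the log2(FPKM + 1) scale, shARHGEF2 minus shNC, for the hairpin target ARHGEF2 and the 9 genes, as points with 95% intervals from limma (n = 3 libraries per group). The interval of ARHGEF2 runs from -1.71 to -1.22, those of 8 of the 9 genes include 0, and that of SRXN1 runs from 0.07 to 0.50.

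Part of the spread within groups was shared between genes. GC content separated libraries within each group. The deviation of a gene from its group mean had a Spearman's rho with GC content, across 12231 genes that are not independent, of -0.52 in shNC replicate 2 and -0.49 in shARHGEF2 replicate 2, against 0.38 and 0.60 in replicate 1 of the 2 groups. SLC7A11 (38.6% GC in its listed transcripts), ME1 (39.5%), GCLM (43.1%) and NFE2L2 (46.2%) were highest in replicate 2 of both groups. GCLC (44.4%) and TXNRD1 (46.4%), of similar GC content, were highest in replicate 2 of shARHGEF2 but in replicate 3 of shNC. With a trend on GC content removed from each library, the log2 fold changes were -0.15 for SLC7A11, 0.10 for ME1, 0.32 for GCLM, 0.07 for NFE2L2, 0.35 for TXNRD1 and 0.28 for SRXN1. The lowest adjusted p among the 9 genes was then that of GCLM, at 0.107 in limma.

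Averaged over the 7 target genes, the difference of log2(FPKM + 1) from the shNC mean was -0.17, 0.12 and 0.04 in shNC and -0.02, 0.29 and 0.18 in shARHGEF2 replicates 1 to 3. The shARHGEF2 library with the lowest average thus lay below 2 of the shNC libraries. The same average over the 32 tested genes of a wider target list was -0.03, -0.03 and 0.06 in shNC and 0.08, 0.20 and 0.15 in shARHGEF2, where the groups did not overlap. The median log2(FPKM + 1) over all genes tested was 2.24, 2.36 and 2.28 in shNC and 2.23, 2.34 and 2.32 in shARHGEF2 replicates 1 to 3. The averages were not corrected for these medians. They are descriptions and were not tested.

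The wider list held 36 further genes described as NRF2 targets, of which 35 had a row and 32 were tested. This list and those below were chosen with earlier results of these data known. None was called in limma (lowest adjusted p = 0.230). At an unadjusted p under 0.05 the list had 7 genes with a positive log2 fold change (21.9% of those tested, beside 8.1% of all genes tested) and 1 with a negative one (3.12%, beside 5.55%). These 8 genes became 3 without shNC replicate 1 or without shARHGEF2 replicate 2, and 4 without shARHGEF2 replicate 3. Over all genes tested the number was 1678 of 12291, and 1194 of 12354 without shNC replicate 1. It was 1169 of 12217 without shARHGEF2 replicate 2 and 1229 of 12273 without shARHGEF2 replicate 3. The log2 fold change was positive for 25 of the 32 genes, with a median of 0.13. The groups did not overlap in 5 of the 32 genes (15.6%, beside 20.5% of all genes tested).

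The 4 genes of the wider list with the smallest p were TRIM16L, OSGIN1, ABHD4 and EPHX1. TRIM16L, a tripartite motif gene, had 13.7, 13.8 and 14.5 FPKM in shNC and 15.4, 20.4 and 22.6 FPKM in shARHGEF2 replicates 1 to 3. Its groups did not overlap (log2 fold change 0.44, adjusted p = 0.230 in limma). It is a near copy of TRIM16, so its reads may have been split between the 2 genes. OSGIN1, a growth inhibitor induced by oxidative stress, had 1.88, 1.84 and 2.83 FPKM in shNC and 3.59, 4.25 and 2.76 FPKM in shARHGEF2, with overlap between shNC replicate 3 and shARHGEF2 replicate 3 (log2 fold change 0.51, adjusted p = 0.249 in limma). ABHD4, a lipase of N-acyl phospholipids, overlapped as well, at 10.0 to 15.1 FPKM in shNC and 14.5 to 22.8 FPKM in shARHGEF2 (log2 fold change 0.55, adjusted p = 0.256 in limma). EPHX1, the microsomal epoxide hydrolase, lay at 44.9 to 53.1 FPKM in shNC and at 57.0 to 61.1 FPKM in shARHGEF2, without overlap (log2 fold change 0.27, adjusted p = 0.258 in limma).

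Of the rest with an unadjusted p under 0.05, PIR, AKR1C2 and AKR1C3 had log2 fold changes of 0.33, 0.39 and 0.35. The AKR1C genes encode aldo-keto reductases of near-identical sequence, so values of the single genes are uncertain. TXN, thioredoxin itself and the substrate of TXNRD1, was the 1 gene on the negative side. It had 206, 187 and 172 FPKM in shNC and 141, 167 and 156 FPKM in shARHGEF2 replicates 1 to 3, with every shARHGEF2 library under every shNC library and a log2 fold change of -0.28 (unadjusted p = 0.0222, adjusted p = 0.276 in limma). HMOX1, heme oxygenase, a target that also answers to heme and other factors, had 25.1 to 30.9 FPKM in shNC and 24.2 to 25.5 FPKM in shARHGEF2 (log2 fold change -0.18, adjusted p = 0.470 in limma). The NADPH-producing enzyme PGD had a log2 fold change of 0.08, and glutathione reductase, GSR, had 0.16, each with overlapping groups.

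**Figure D4:**
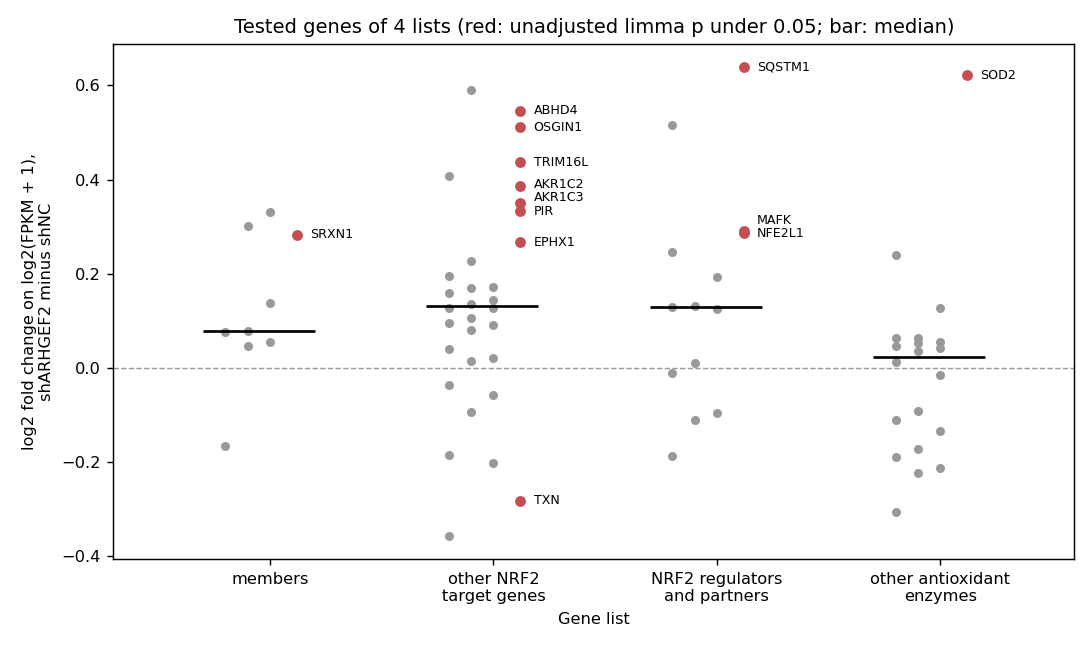
Log2 fold change on the log2(FPKM + 1) scale, shARHGEF2 minus shNC, for each tested gene of 4 lists, with genes at an unadjusted limma p under 0.05 in red and named, others in grey, and a bar at the median of the list. The medians are 0.08, 0.13, 0.13 and 0.02 from left to right, and no gene shown passed the adjusted threshold.

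Among 15 genes that regulate NRF2 or pair with it, 14 were tested and none was called in limma (lowest adjusted p = 0.158). At an unadjusted p under 0.05 there were 3 genes, all with a positive log2 fold change (21.4%, beside 8.1% of all genes tested). There was 1 with median scaling, and 1 without shNC replicate 2, shARHGEF2 replicate 1 or shARHGEF2 replicate 2. Over all genes tested these settings gave, in the same order, 1646 of 12291, 1393 of 12206, 1492 of 12320 and 1169 of 12217. The main test gave 1678 of 12291. SQSTM1, p62, binds KEAP1 and takes it to autophagy, and its gene is itself a target of NRF2. It had 173, 159 and 243 FPKM in shNC and 281, 339 and 266 FPKM in shARHGEF2 replicates 1 to 3, without overlap. The log2 fold change of SQSTM1 was 0.64 (95% interval 0.26 to 1.02, unadjusted p = 0.00463 and adjusted p = 0.158 in limma). Without shNC replicate 3, the highest shNC library, it was 0.82 and passed the adjusted threshold (adjusted p = 0.0438 in limma). Leaving out the highest shNC library widens the difference by itself, and 102 of 12318 genes were called in that setting. With any other library left out, the adjusted p of SQSTM1 in limma was 0.273 to 0.414.

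NFE2L1, the related factor that drives proteasome genes, had 43.9, 39.4 and 42.4 FPKM in shNC and 53.5, 56.5 and 44.4 FPKM in shARHGEF2 replicates 1 to 3, without overlap (log2 fold change 0.29, adjusted p = 0.304 in limma). The small MAF partner MAFK had 35.4, 31.1 and 42.7 FPKM in shNC and 46.6, 43.8 and 43.0 FPKM in shARHGEF2, again without overlap (log2 fold change 0.29, adjusted p = 0.343 in limma). Its relative MAFG overlapped between the groups (log2 fold change 0.25, adjusted p = 0.479 in limma). The groups did not overlap in 3 of the 14 genes tested from this list (21.4%, beside 20.5% of all genes tested). CUL3, the scaffold of the ligase that KEAP1 serves, was low, at 0.897 to 1.63 FPKM in shNC and 0.894 to 1.18 FPKM in shARHGEF2. BACH1, the repressor that competes for antioxidant response elements, was at 0.353 to 1.04 and 0.597 to 1.14 FPKM.

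The 22 antioxidant enzymes not chosen as NRF2 targets served as a comparison. Of these, 20 were tested, none was called in limma (lowest adjusted p = 0.216), and the median log2 fold change was 0.02, with 11 positive and 9 negative. At an unadjusted p under 0.05 there was 1 gene, SOD2, the mitochondrial superoxide dismutase, which is also a target of NF-kB (5% of the list with a positive log2 fold change, beside 8.1% of all genes tested). There were 3 with the replicate block, 4 with the GC content trend removed, 3 without shARHGEF2 replicate 1 and 2 without shARHGEF2 replicate 2. Over all genes tested these settings gave, in the same order, 1976 of 12291, 2280 of 12231, 1492 of 12320 and 1169 of 12217. The main test gave 1678 of 12291. SOD2 had 3.69, 3.97 and 6.80 FPKM in shNC and 7.61, 8.45 and 7.14 FPKM in shARHGEF2 replicates 1 to 3 (log2 fold change 0.62, adjusted p = 0.216 in limma). The groups did not overlap, and shNC replicate 3 lay nearest to the shARHGEF2 libraries. Without that library SOD2 had a log2 fold change of 0.85 and passed (adjusted p = 0.0438 in limma), in the setting where 102 of 12318 genes were called. Its omission widens the difference by itself. With any other library left out, the adjusted p of SOD2 in limma was 0.329 to 0.491. The next 3 genes by p were PRDX2, GSS and PRDX3, peroxiredoxins of the cytosol and mitochondria and glutathione synthetase, with log2 fold changes of -0.21, -0.19 and -0.31 and adjusted p between 0.392 and 0.538 in limma. In PRDX2 and GSS every shARHGEF2 library lay under every shNC library, so that the groups did not overlap in 3 of the 20 genes, 1 higher and 2 lower in shARHGEF2 (15%, beside 20.5% of all genes tested).

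Profiles were compared over the 6 libraries by the Euclidean distance between standardised log2(FPKM + 1) values, which runs from 0 for the same profile to 4.47 for opposite ones. The gene outside the 9 with the profile most like that of NFE2L2 was CCDC117 (distance 0.288), with a log2 fold change of 0.022. Those most like SRXN1 were NR4A2 (0.144), GEM (0.185) and ABCC5 (0.187), whose log2 fold changes were 0.60, 0.72 and 0.13 and none of which was called. With 6 libraries and 12291 genes, close profiles of this kind are descriptions.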

How the data were processed

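Polyadenylated RNA of 6 libraries, 3 per group, was sequenced in pairs after strand-marking library preparation with molecular identifiers. The deposited values are FPKM per gene and library. The submitters' processing notes name cutadapt 1.9, HISAT2 2.0.4, UMI-tools, StringTie 1.3.4d, DESeq2, edgeR and hg19, without roles. The gene IDs belong to a GRCh38 annotation (97.8% were found in GENCODE 29), so positions are those of GENCODE 29 on GRCh38. The authors' own fold changes and p-values in the table were not used. Read depth was not settled: at the best of many depths tried, 38.4% to 45.1% of low FPKM values in a library fell near whole reads. At a single fixed depth 20% would by chance, which is no reference for the best of many.

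Genes averaging 0.5 FPKM or more were tested with limma 3.58.1 (R 4.3.3, trended and robust variances, statmod 1.5.0) on log2(FPKM + 1), without covariates, and adjusted by the Benjamini-Hochberg method. Single values were also compared by exact permutation tests. Named were the 9 genes, ARHGEF2, the 4 genes of smallest p and any called gene in each of 3 lists, and the 3 profiles most like NFE2L2 and SRXN1, some of which are not reported here. HMOX1, TXN, PGD, GSR, PIR, AKR1C2, AKR1C3, CUL3, BACH1, MAFF, AKR1C1, FTH1, FTH1P5, RPL18AP3 and the untested genes were named after their values were seen. The genes and lists were chosen with earlier results of these data known. In simulated data for this comparison (12291 genes, 200 changed), 160 were called when the change was 1 (log2) and 0 when it was 0.5. The alternatives comprised blocking on replicate number, 0.1 as pseudocount, 2 other filters, quantile normalization, median scaling, plain limma variances, omission of single libraries and, chosen after seeing the data, correction of each library for GC content by loess (span 0.3). GC content came from the listed transcripts in GENCODE 29. Plots were drawn with matplotlib 3.10.9.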

Additional observations from a re-analysis of the deposited data

How the results depend on the processing

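None of the 9 genes was called in limma under any of the 14 alternatives, and SRXN1, GCLM, TXNRD1, GCLC and NQO1 kept a positive and SLC7A11 a negative log2 fold change in all of them. With each library left out in turn, NFE2L2 lay between -0.084 and 0.16, KEAP1 between -0.072 and 0.16 and ME1 between -0.061 and 0.20 on the log2 scale. Among the 9 genes the number with an unadjusted p under 0.05 was 1, and it was 3 with the replicate block, 2 with quantile normalization, median scaling or the GC content trend removed, and 0 to 3 with 1 library left out (0 without shNC replicate 1 or shARHGEF2 replicate 2, 2 without shNC replicate 2, 3 without shARHGEF2 replicate 1). Over all genes tested the number at that threshold was 1678 of 12291, and 1976 with the replicate block. It was 1851 with quantile normalization, 1646 with median scaling and 2280 of 12231 with the GC content trend removed. With 1 library left out it ran from 1169 of 12217 (shARHGEF2 replicate 2) to 1973 of 12318 (shNC replicate 3). Of the regulators, and of the other antioxidant enzymes, 0 to 1 were called with 1 library left out. These were SQSTM1 and SOD2, each without shNC replicate 3. Over all genes 34 were called, and 0 with the replicate block, 1 without a filter, 54 with at least 1 FPKM in 3 or more libraries, 19 with quantile normalization, 6 with median scaling, 7 without trend or robust variances, and 6 to 102 with 1 library left out (13 without shNC replicate 1, 14 without shNC replicate 2, 102 without shNC replicate 3, 13, 15 and 6 without shARHGEF2 replicates 1, 2 and 3). ARHGEF2 kept its log2 fold change of -1.47 but missed the threshold with the replicate block (adjusted p = 0.0716) and without a filter (adjusted p = 0.0701). The causes were not tested. Libraries with the same number had residual correlations of 0.18, 0.16 and -0.10, and those with unlike numbers had -0.22 to 0.068. Libraries numbered 1 and those numbered 2 thus shared some of their deviations, and those numbered 3 did not. Whether the numbers mark pairs is not stated in the labels, and the main test did not block on them. With 3 libraries per group, no gene was called in the simulated data at a log2 change of 0.5, and the changes of the 9 genes were smaller. The simulated libraries varied independently, without the shared GC content trend, so they set no detection limit for the real ones.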

Other observations

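A few genes of the lists, averaging less than 0.5 FPKM, were left out of the test. AKR1B10, an aldo-keto reductase and NRF2 target, had 0.0481, 0.0724 and 0.0276 FPKM in shNC and 0.375, 0.0261 and 0.166 FPKM in shARHGEF2 replicates 1 to 3. UGT1A6, a glucuronosyltransferase, had 0.231, 0.0818 and 0.231 FPKM in shNC and 0.701, 0.191 and 0.222 FPKM in shARHGEF2. GPX2, BACH2, SOD3 and GPX3 did not exceed 0.344 FPKM in any library. MAFF, the most variable small MAF gene, had 11.7, 2.92 and 16.5 FPKM in shNC and 16.5, 19.8 and 6.03 FPKM in shARHGEF2, so its 95% interval on the log2 scale ran from -1.40 to 2.44. AKR1C1 had the largest log2 fold change of the wider target list, 0.59, with 13.9, 13.5 and 29.1 FPKM in shNC and 22.8, 33.3 and 26.1 FPKM in shARHGEF2 (adjusted p = 0.459 in limma). FTH1 had the lowest, -0.36 (adjusted p = 0.392 in limma). Its values were 5185, 3702 and 5022 FPKM in shNC and 4042, 3875 and 2932 FPKM in shARHGEF2 replicates 1 to 3.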
